A study of Homo sapiens with 4 samples.

Results

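The epidermal differentiation complex is a cluster of genes on chromosome 1 (1q21) that encode proteins of the outer layers of the skin and of the lining of the mouth. The genes described here were chosen by name, as every gene on the array whose symbol begins with S100A, SPRR or LCE followed by a digit, together with IVL, LOR, FLG, FLG2, CRNN, RPTN and TCHH. This gave 52 genes of the 43305 with a value, measured by 63 probes. By the coordinates of the probes they lie between bases 151955420 and 153603135 of chromosome 1 (hg19), a stretch of 1647716 bases.

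As a keratinocyte leaves the basal layer it builds a cornified envelope under its membrane, in which transglutaminases crosslink involucrin, loricrin, small proline-rich proteins and late cornified envelope proteins. Filaggrin and its relatives of the fused S100 type bundle keratin filaments or reinforce the envelope, and S100A proteins are calcium-binding signalling proteins, several of which are secreted by stressed epithelium. In mucosa and in squamous carcinomas these genes are commonly used as a readout of squamous differentiation.

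Gene expression was measured on 4 one-colour Agilent arrays, 1 for each parental line (HN4 and HN30) and 1 for each resistant line (HN4/DDP and HN30/DDP), to find genes that differ between cisplatin-resistant and parental cells. HN4 and HN30 are human head and neck squamous cell carcinoma (HNSCC) lines grown in DMEM with fetal bovine serum, and no cisplatin is named for the parental arrays. The resistant lines, labelled HN4_CR and HN30_CR, were selected by stepwise exposure to the drug. Their medium still had it at 20 μM, by the labels for 48 h. Since the drug was present in the medium, resistance and exposure cannot be told apart.

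Values are log2 signals relative to the 75th percentile of the array, so that 0 is the signal of a fairly bright spot, and each gene is represented by its brightest probe. This percentile corresponded to a signal of 494 in HN4 and 496 in HN4/DDP, and 444 in HN30 and 480 in HN30/DDP, and 57.2%, 59.0%, 55.3% and 63.6% of the spots were well above background. The arrays shared 1 slide and 1 scan. A condition has 1 array, so a difference has neither a replicate check nor a test, and its precision is limited by the number of arrays. The scanner SD given beside a difference is the error that the software assigns to the spots. It does not include variation between cultures. A probe not well above background has only a bound, and the fold is then given as at least the ratio to the lowest signal that passed as well above background there, or to the probe's own signal where that is higher. Counted as higher were genes with a difference over 2 whose signal in the resistant line was well above background, and as lower those under -2 whose signal in the parental line was.

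Of the 52 genes, 40 were well above background on at least 1 array and 29 on every array. By array the number was 33 in HN4 and 37 in HN4/DDP, and 33 in HN30 and 34 in HN30/DDP. The 12 genes below it throughout were RPTN, FLG2, CRNN, LCE3C, LCE2C, LCE2B, LCE2A, LCE6A, SPRR4, SPRR2G, LOR and S100A7L2. By family, the genes above background on at least 1 array were 16 of 17 S100A genes, 9 of 11 SPRR genes, 12 of 17 LCE genes, IVL but not LOR, and 2 of the 5 genes of the fused type, FLG and TCHH.

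**Figure D1:**
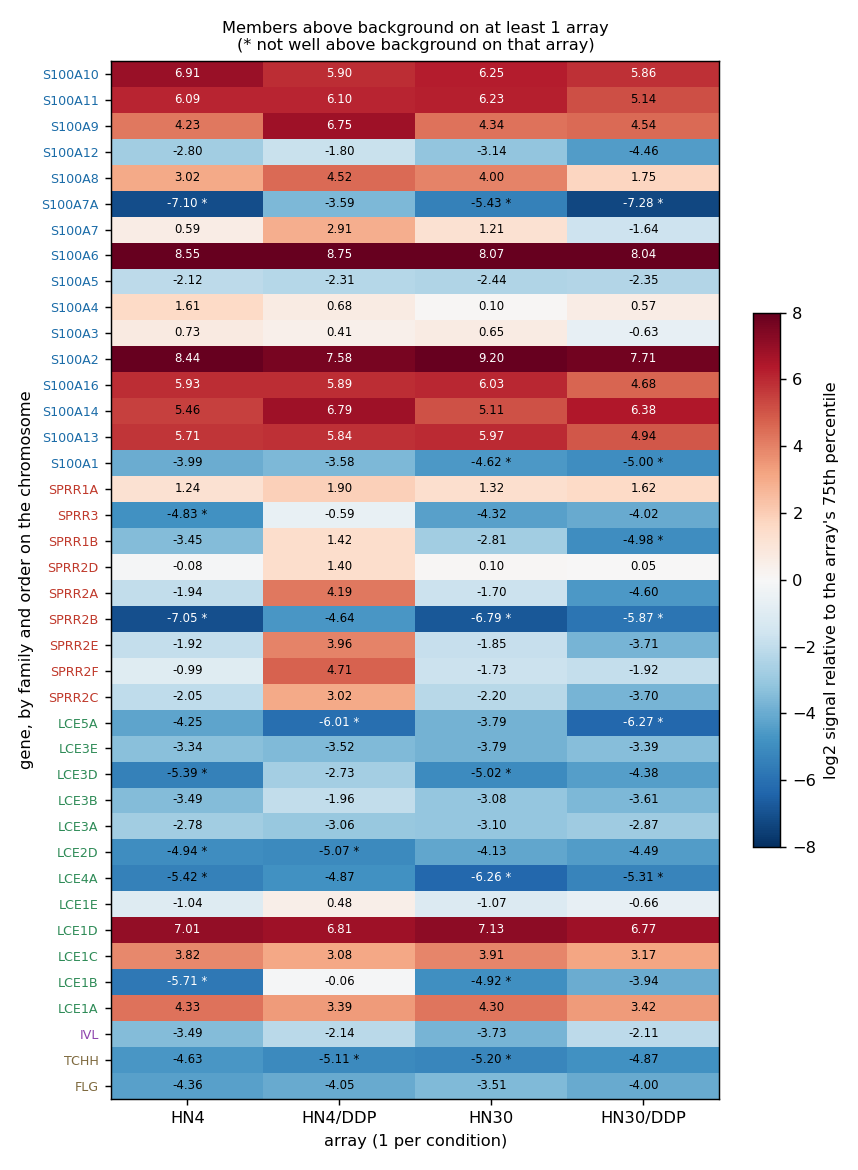
Log2 signal relative to the 75th percentile of the array for the 40 genes with a signal well above background on some array (rows, by family and in their order on the chromosome) on each of the 4 arrays (columns); an asterisk marks a value not well above background. The SPRR2 genes stand out in HN4/DDP, with 4.19 for SPRR2A against -1.94 in HN4, while S100A6 lay between 8.04 and 8.75 on every array.

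In HN4/DDP, 12 of the 37 genes above background on its array were higher than in HN4 (32.4%), against 3.8% of all genes (970 of 25525), and 0 of 33 were lower, against 2.38% of all genes (590 of 24798). In HN30/DDP, 0 of 34 were higher, against 8.58% of all genes (2371 of 27625), and 5 of 33 were lower (15.2%), against 3.25% (779 of 23950). The median difference over the genes above background on either array of a pair was 0.66 in HN4/DDP (39 genes) and -0.37 in HN30/DDP (36 genes), beside -0.08 (26853) and 0.06 (28330) over all such genes. Scaling to the median of the array in place of the 75th percentile shifted the all-gene median of HN30/DDP by -0.42. The median of the 36 genes was then -0.79. This scaling moves all genes of an array alike, so the distance between these medians could not change. The distance was -0.43 as reported, -0.25 with normexp background correction, -0.32 with quantile normalization and -0.31 in the authors' table. In HN4/DDP it was 0.74, and 0.43 with normexp and 1.43 with the mean of all probes. With normexp background correction 9 of 37 genes were higher in HN4/DDP in place of 12. In HN30/DDP 2 of 33 were lower in place of 5. For these counts the share over all genes was not taken at that setting. In the authors' table the all-gene shift was -0.12. Of the 12 higher genes in HN4/DDP, 5 were not well above background in HN4 and thus entered the count through the resistant array. With dim signals set to the lowest signal well above background, 10 were higher in HN4/DDP. In HN30/DDP 4 were then lower. SPRR2E, SPRR2F and SPRR2C count as separate genes, though the SPRR2E probe shares sequence with the SPRR2F and SPRR2C probes. Fewer cells that express a gene and less of its RNA per cell cannot be told apart in such bulk samples, and whether HN4/DDP and HN30/DDP differ was not tested.

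SPRR2A, SPRR1B and S100A7 were counted in opposite directions, as higher in HN4/DDP and as lower in HN30/DDP. These are 3 of the 31 genes above background on the HN4/DDP and HN30 arrays (9.68%), while 0.0834% of all genes (19 of 22781) had that pattern. The number depends on the handling of dim signals: with normexp background correction it was 1 of 31 (S100A7) beside 3 of 22781, and with a pseudocount of 16 it was 2 (S100A7 and SPRR2A) beside 5. With median scaling, quantile normalization and in the authors' table SPRR2E joined, which made 4.

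Between the parental lines, HN30 was higher than HN4 for 0 of 33 genes (0.977% of all genes, 234 of 23950) and lower for 0 of 33 (1.99%, 493 of 24798). Of the 35 genes above background on either parental array, 34 differed by less than 1, beside 89.6% of all such genes (23198 of 25890). The exception was S100A4, a calcium-binding protein linked to cell motility, at 1.61 in HN4 and 0.10 in HN30, a difference of -1.51 (scanner SD 0.20).

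**Figure D2:**
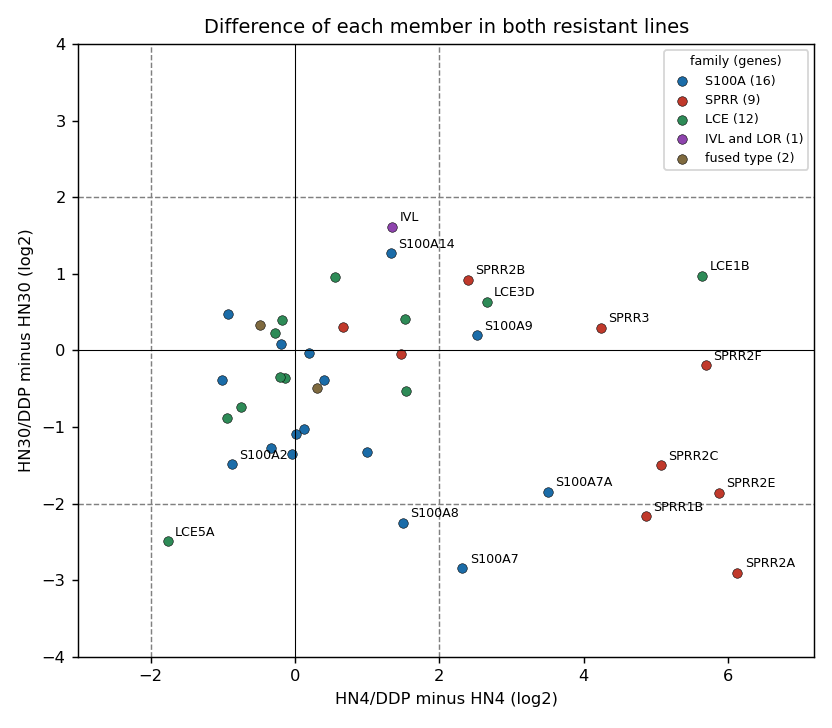
Log2 difference of HN4/DDP against HN4 (horizontal) and of HN30/DDP against HN30 (vertical), each point a gene with a signal well above background on some of the 4 arrays, coloured by family, with dashed lines at 2 and -2. Every SPRR gene lies right of 0, while SPRR2A, SPRR1B, S100A7, S100A8 and LCE5A lie below -2 on the vertical axis.

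Of the S100A genes, 3 were counted as higher in HN4/DDP (S100A9, S100A7 and S100A7A) and 2 as lower in HN30/DDP (S100A7 and S100A8). S100A8 and S100A9 are the subunits of calprotectin, a metal-binding protein of neutrophils and stressed epithelium. The S100A9 signal was 4.23 in HN4 and 6.75 in HN4/DDP, and 4.34 in HN30 and 4.54 in HN30/DDP. It was thus high on every array and stood apart in HN4/DDP, where the difference was 2.53 (scanner SD 0.20, 5.77-fold). In HN30/DDP it was 0.20, and the direction there turned with the scaling (0.73 with quantile normalization, 0.72 in the authors' table, -0.22 with median scaling). S100A8 read 3.02, 4.52, 4.0 and 1.75 in the same order. Its difference was 1.49 in HN4/DDP (2.82-fold higher) and -2.25 in HN30/DDP (scanner SD 0.20, 4.75-fold lower; -1.85 with quantile normalization and -1.90 in the authors' table). In HN30/DDP, then, S100A8 was below its parental level under every setting and S100A9 was not.

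S100A7, psoriasin, is an antimicrobial protein made by inflamed or differentiating keratinocytes. Its signal was 0.59 in HN4 and 2.91 in HN4/DDP, and 1.21 in HN30 and -1.64 in HN30/DDP. HN4/DDP was thus the brightest and HN30/DDP the dimmest of the arrays, with differences of 2.32 (scanner SD 0.20, 5.00-fold higher) and -2.85 (scanner SD 0.21, 7.19-fold lower). S100A7A is a close paralog with related functions. Its signal was -7.10, -3.59, -5.43 and -7.28, well above background in HN4/DDP alone, at least 2.25-fold over HN4 (difference 3.51, scanner SD 1.46; 0.65 with normexp). Its other probe was not well above background on any array. The probes behind the S100A7 and S100A9 values lie within these genes at chr1:153430429-153431390 (minus strand) and chr1:153330874-153333143 (plus strand) of hg19, coordinates that reach over more bases than the probe holds, as those of a probe across a splice junction do. They are printed because these genes were counted as higher in HN4/DDP with signals well above background on every array, in lower case throughout with no base marked.
S100A7 probe: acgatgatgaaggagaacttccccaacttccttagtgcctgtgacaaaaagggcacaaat
S100A9 probe: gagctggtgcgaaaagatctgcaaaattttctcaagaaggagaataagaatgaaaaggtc

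The other 12 S100A genes above background ranged from -1.01 (S100A10, the annexin A2 partner) to 1.33 (S100A14) in HN4/DDP, with a median of -0.01. In HN30/DDP, 11 of them were above background on either array of the pair and ranged from -1.49 (S100A2) to 1.27 (S100A14), with a median of -1.03. Over all S100A genes the HN30/DDP difference was below 0 for 10 of 14 and below -1 for 8 of 14 (over all genes for 13352 and 3756 of 28330), with a median of -1.06 that was -0.48 with quantile normalization and -0.51 in the authors' table. In HN4/DDP it was below 0 for 6 of 16 (over all genes for 15013 of 26853), with a median of 0.16. S100A2, a p63 and p53 target of squamous epithelium, read 8.44 in HN4 and 7.58 in HN4/DDP, and 9.20 in HN30 and 7.71 in HN30/DDP. It was lower in both resistant lines, by differences of -0.87 and -1.49. S100A14, a membrane-associated S100 protein of epithelia, read 5.46, 6.79, 5.11 and 6.38, and was higher in both by 1.33 and 1.27. S100A6, calcyclin, was nearly level at 8.55, 8.75, 8.07 and 8.04. For S100A12, a secreted ligand of RAGE, the differences were 1.00 and -1.32, and its probes gave the same direction in each line.

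The SPRR genes, which encode small proline-rich proteins that bridge other envelope proteins, made up 7 of the 12 genes higher in HN4/DDP. There all 9 SPRR genes above background had a positive difference, under every setting tried, with a median of 4.87; over all genes 11840 of 26853 were above 0. In HN30/DDP the difference was below 0 for 6 of 8 (over all genes for 13352 of 28330), with a median of -0.85 and 2 counted as lower. It was below 0 for 7 of 8 with normexp, with quantile normalization and in the authors' table, and the common shift of median scaling put all 8 below it.

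SPRR2 is a set of closely similar genes. Of all members measured on both arrays by their brightest probes, SPRR2A had the largest difference in HN4/DDP. It read -1.94 in HN4 and 4.19 in HN4/DDP, and -1.70 in HN30 and -4.60 in HN30/DDP. The parental values were alike and the resistant lines lay on opposite sides of them. The difference was 6.13 in HN4/DDP (scanner SD 0.21, 70.2-fold higher) and -2.90 in HN30/DDP (scanner SD 0.31, 7.47-fold lower; -1.39 with normexp). A further SPRR2A probe gave 5.58 and, not well above background in HN30/DDP, at least 1.67-fold lower there (-1.25), the same directions. SPRR2E read -1.92, 3.96, -1.85 and -3.71. Again HN4/DDP was high and HN30/DDP low, with differences of 5.88 (scanner SD 0.21, 58.9-fold higher) and -1.86 (scanner SD 0.24, 3.63-fold lower; -1.01 with normexp). SPRR2C, annotated as a pseudogene, followed the same order. It read -2.05, 3.02, -2.20 and -3.70, which gave 5.07 (scanner SD 0.21, 33.6-fold higher) and -1.50 (2.83-fold lower; -0.81 with normexp).

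SPRR2F read -0.99 in HN4 and 4.71 in HN4/DDP, and -1.73 in HN30 and -1.92 in HN30/DDP. It was high in HN4/DDP by 5.70 (scanner SD 0.21, 51.9-fold), and differed by -0.19 in HN30/DDP (-0.61 with median scaling and -0.51 with quantile normalization). SPRR2B was at the edge of detection, at -7.05, -4.64, -6.79 and -5.87. Only the HN4/DDP value was well above background, at least 1.09-fold over HN4 (difference 2.40, scanner SD 1.47; 0.37 with normexp). The SPRR2E probe shares sequence with the SPRR2F probe and with the SPRR2C probe. The longest run shared by the SPRR2E and SPRR2F probes was 28 bases, with 54 of 60 bases matching, and by the SPRR2E and SPRR2C probes 16 bases. The values of these SPRR2 genes are uncertain as to the paralog, and the transcripts themselves were not compared.

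The SPRR1B and SPRR3 probes held no run of 15 bases in common with the probe of another member. SPRR1B, a substrate of transglutaminase that is induced in squamous metaplasia, read -3.45 in HN4 and 1.42 in HN4/DDP, and -2.81 in HN30 and -4.98 in HN30/DDP. The last value was not well above background. The differences were 4.87 (scanner SD 0.24, 29.2-fold higher) and -2.17 (scanner SD 0.38, at least 4.38-fold lower; -0.85 with normexp). SPRR3, abundant in oral and esophageal lining, read -4.83, -0.59, -4.32 and -4.02. HN4 was below background there, which gave at least 18.0-fold higher in HN4/DDP (difference 4.24, scanner SD 0.37; 2.28 with normexp), while the difference in HN30/DDP was 0.30 and turned below 0 with normexp (-0.01), median scaling (-0.12), quantile normalization and the authors' table (-0.11 each).

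The remaining SPRR genes depended on the probe. SPRR1A, the close relative of SPRR1B, read 1.24, 1.90, 1.32 and 1.62 with its brightest probe, differences of 0.66 and 0.30 (the latter -0.12 with median scaling). Its other probe, nearer the 3' end, gave 4.27 (19.2-fold higher) in HN4/DDP and 2.03 (at least 1.52-fold higher) in HN30/DDP. The brightest probe is printed because the value of the gene turns on it; it lies at chr1:152957897-152957956 (hg19, plus strand) and no base is marked.
SPRR1A probe: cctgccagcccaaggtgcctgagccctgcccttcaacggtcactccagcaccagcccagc
For SPRR2D the brightest probe gave 1.48 and -0.05 and the other one 4.85 (28.7-fold higher) and -1.80 (3.49-fold lower). In both genes, then, the probe nearer the 3' end, which was not the one used, showed the larger differences.

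**Figure D3:**
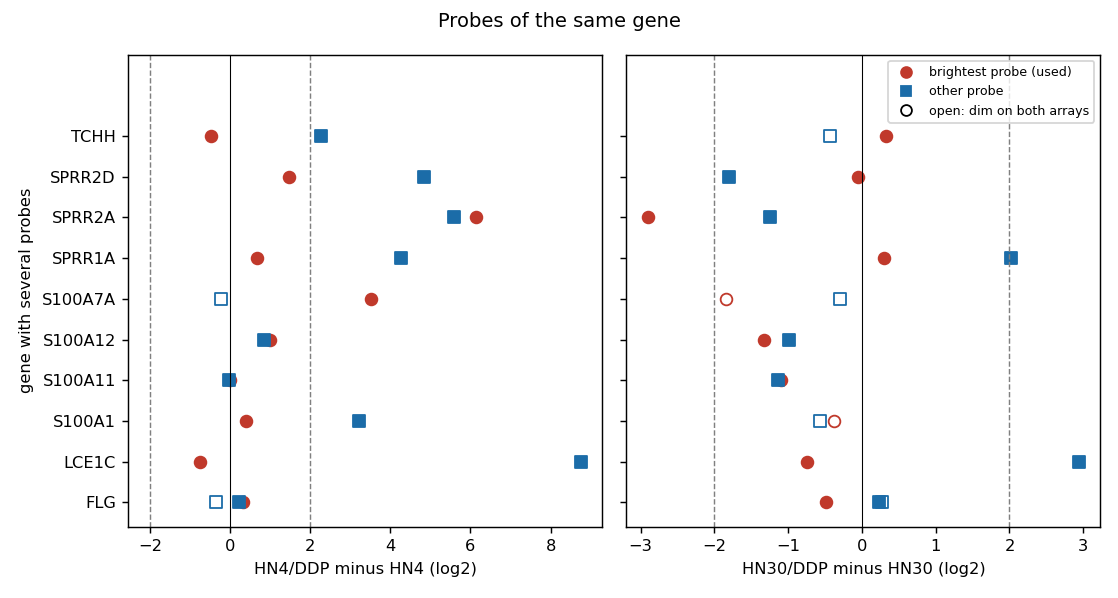
Log2 difference of each probe (horizontal) for the 10 genes with several probes, HN4/DDP against HN4 on the left and HN30/DDP against HN30 on the right; circles are the brightest probe, squares the other probes, and open symbols probes not well above background on either array. LCE1C, S100A7A, SPRR1A, SPRR2D, S100A1 and TCHH have probes that differ by over 2 in HN4/DDP, while the S100A11 and S100A12 probes lie close together.

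The late cornified envelope (LCE) genes encode small proteins that are crosslinked late in cornification. LCE1B read -5.71 in HN4 and -0.06 in HN4/DDP, and -4.92 in HN30 and -3.94 in HN30/DDP. Both parental values were below background. The difference in HN4/DDP was 5.65 (scanner SD 0.62, at least 26.0-fold higher; 2.90 with normexp) and in HN30/DDP 0.97 (at least 1.61-fold higher; 0.18 with normexp). LCE3D, of the LCE3 group that is induced by injury and inflammation, read -5.39, -2.73, -5.02 and -4.38. It too was above background in the resistant lines only, by at least 4.10-fold (difference 2.66, scanner SD 0.50; 0.81 with normexp) and at least 1.18-fold (0.63; -0.01 with normexp, so the direction in HN30/DDP turned). LCE5A read -4.25, -6.01, -3.79 and -6.27. This gene was below background in both resistant lines, at least 1.67-fold lower in HN4/DDP (difference -1.76; -0.35 with normexp) and at least 2.23-fold lower in HN30/DDP (difference -2.49, scanner SD 0.79; -0.58 with normexp).

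The other 9 LCE genes above background ranged from -0.94 (LCE1A) to 1.53 (LCE3B) in HN4/DDP and from -0.88 (LCE1A) to 0.41 (LCE1E) in HN30/DDP, 8 of them with a value above background in each pair. The family median was -0.18 and -0.35, and turned positive (0.56 and 0.23) when the mean of all probes of a gene was used, which LCE1C decides. Its brightest probe read 3.82, 3.08, 3.91 and 3.17, differences of -0.75 and -0.74. The other LCE1C probe read -7.07 in HN4 and 1.69 in HN4/DDP, and -6.95 in HN30 and -4.0 in HN30/DDP. That is at least 87.5-fold higher in HN4/DDP (difference 8.76, scanner SD 1.45) and at least 1.54-fold higher in HN30/DDP (2.94), the opposite direction. The brightest LCE1C probe shares sequence with those of LCE1A and LCE1D, and all of them gave bright signals: LCE1A lay between 3.39 and 4.33, with differences of -0.94 and -0.88 (the latter -0.42 with quantile normalization and -0.43 in the authors' table), and LCE1D between 6.77 and 7.13. The probes are shown to let these values be read with their sequences. They lie at chr1:152800026-152800085 (LCE1A, plus strand), chr1:152777835-152777894 (LCE1C, minus strand) and chr1:152770331-152770390 (LCE1D, plus strand) of hg19, and capitals mark a run of 20 bases that all of them hold.
LCE1A probe: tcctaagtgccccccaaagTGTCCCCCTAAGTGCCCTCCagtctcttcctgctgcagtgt
LCE1C probe: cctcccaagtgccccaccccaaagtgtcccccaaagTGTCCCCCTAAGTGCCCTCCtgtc
LCE1D probe: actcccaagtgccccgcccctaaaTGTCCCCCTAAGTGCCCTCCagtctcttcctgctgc
The longest shared run was 36 bases between the LCE1D and LCE1A probes, 29 between LCE1C and LCE1A and 20 between LCE1D and LCE1C. These values are uncertain as to the gene. Whether the probes bind other transcripts was not tested.

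IVL, involucrin, an early scaffold of the envelope, read -3.49 in HN4 and -2.14 in HN4/DDP, and -3.73 in HN30 and -2.11 in HN30/DDP. It was higher in both resistant lines, by 1.35 (scanner SD 0.24, 2.55-fold; 0.65 with normexp) and 1.62 (scanner SD 0.26, 3.07-fold; 0.73 with normexp). LOR, loricrin, the main envelope protein of epidermis, was not well above background on any array.

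Among the genes of the fused type, FLG, filaggrin, read -4.36, -4.05, -3.51 and -4.0, with differences of 0.31 and -0.49 (scanner SD 0.35 and 0.29). Another FLG probe, above background on every array, gave 0.22 and 0.23, so the direction in HN30/DDP depends on the probe. TCHH, trichohyalin of the hair follicle, was well above background in HN4 and HN30/DDP only, close to its limit. It was at least 1.29-fold lower in HN4/DDP, and no fold or direction is given for HN30/DDP. A second TCHH probe was above background in HN4/DDP only, at least 1.45-fold over HN4 (2.27). A second S100A1 probe likewise gave at least 3.24-fold (3.22) where the brightest one gave 0.41. CRNN, FLG2 and RPTN, the cornulin, filaggrin-2 and repetin genes, were below background throughout.

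Both resistant arrays were also compared with both parental arrays, blocked by line, a contrast with 1 residual degree of freedom in which the lines stand in for replicates. Fitted with limma over 29521 genes, it gave 0 of 40 members and 0 of all genes at an adjusted p of 0.05. At an unadjusted p of 0.05 it gave 5 members (IVL, LCE1B, LCE5A, S100A14 and S100A2) and 2537 genes (8.59%). With median scaling, 297 genes but 0 members passed the adjusted p. The smallest adjusted p of a member in limma was 0.463 with the 75th percentile, for S100A2 (mean difference -1.18, SE 0.24), lower in both lines, and lay between 0.144 (median scaling) and 0.669 (normexp) over the alternatives. S100A14 (1.30, SE 0.28) had an adjusted p of 0.467 in limma and IVL (1.48, SE 0.35) one of 0.485, both higher in both lines. SPRR2A, with opposite differences in the lines, had a mean of 1.62 with an SE of 2.18 in this fit.

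Along the chromosome, the SPRR genes are numbers 26 to 36 of the 52 and the genes higher in HN4/DDP lie between numbers 10 and 43. Of them, 7 are SPRR genes at numbers 28 to 35, where only SPRR2D was not counted (1.48, and 4.85 with its other probe). The other higher genes lie apart, among genes that were not counted. The span also holds 27 other genes with a value, of which 13 were above background in the HN4 pair. There, 3 were higher in HN4/DDP: CRCT1, a cysteine-rich gene of the complex (at least 8.28-fold), FLG-AS1, antisense to FLG (at least 1.89-fold), and an unnamed transcript (ENST00000429352, at least 38.2-fold). None was lower. In HN30/DDP 1 of 13 was higher (LOC101928034, at least 4.61-fold) and 0 were lower. In the 2000000 bases on either side of the span, 5 of 141 genes were higher in HN4/DDP and 0 were lower, beside 3.61% and 2.2% of all 26853 genes above background on either array of that pair. In HN30/DDP 11 of 146 were higher and 3 lower, beside 8.37% and 2.75% of 28330. The neighbours named here were named after their values were seen.

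**Figure D4:**
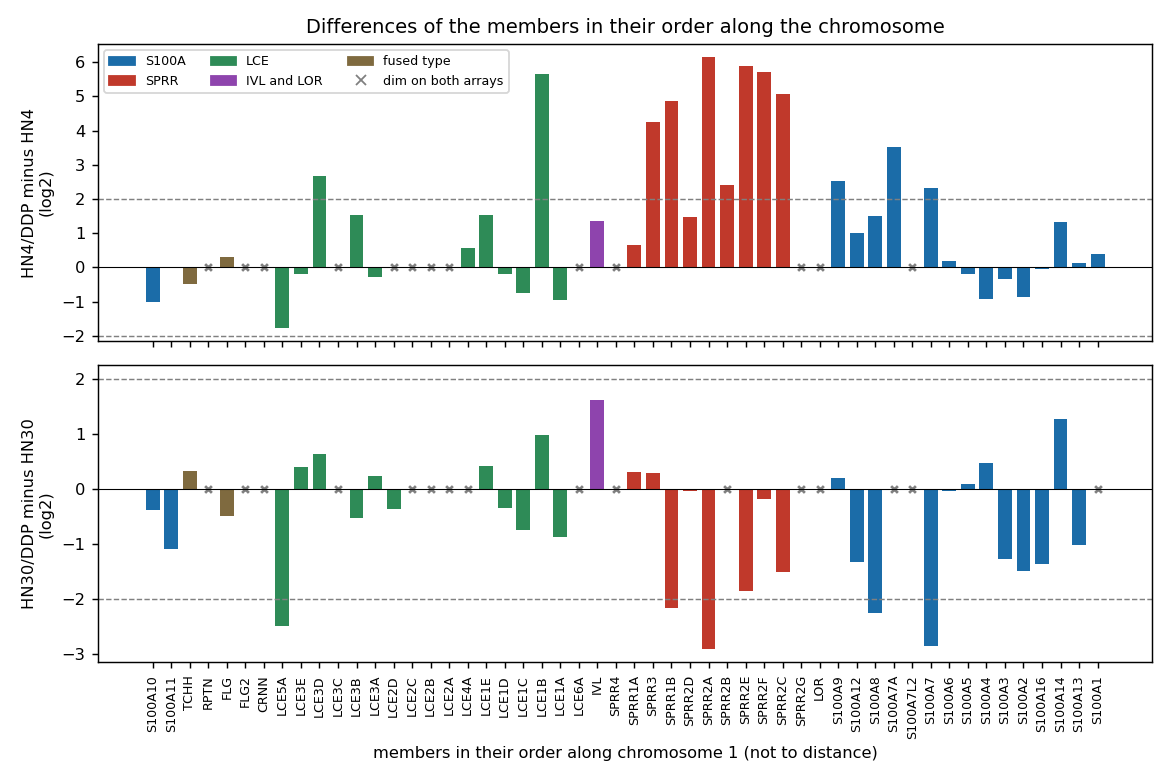
Log2 difference of each of the 52 genes (vertical) in their order along chromosome 1 (horizontal, not to distance), HN4/DDP against HN4 above and HN30/DDP against HN30 below; bars are coloured by family, a cross in place of a bar marks a gene not well above background on either array and dashed lines mark 2 and -2. The tall bars of HN4/DDP cluster in the SPRR genes, where SPRR2A reaches 6.13, and the highest SPRR bar of HN30/DDP is at 0.30.

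Promoter sequences were at hand for 47 of the 52 genes in the RefSeq table of GRCh38.p14, with 35116 promoters of 300 bases, 250 of them before the start. Motifs were searched on both strands. The members are counted as genes and the whole table as promoters. A few members have 2 or 3 promoters, which can raise their share. The AP-1 motif TGANTCA, bound by dimers of FOS and JUN proteins, was in the promoters of 17 of 47 genes (36.2%) against 7.71% of all promoters. It was in 6 of 8 SPRR genes (SPRR1A, SPRR1B, SPRR3, SPRR2A, SPRR2F and SPRR2G), of which SPRR2G was below background on every array. Among the 9 genes higher in HN4/DDP with an entry, 4 had it. The TATA box TATAAA was in 27 genes (57.4%) against 11.5% of all, including 7 of 8 SPRR genes and 7 of the 9 higher genes. The antioxidant response element core TGACNNNGC was in 8 (17.0%, against 13.3%) and no SPRR promoter, the CREB core TGACG in 6 (12.8%, against 24.6%), among the higher genes that of S100A7 only, and the grainyhead motif AACCGGTT in 0 (0.134% of all). The grainyhead motif was in only 47 of 35116 promoters, so a count of 0 among 47 genes could hardly have come out otherwise. The AP-1, antioxidant and CREB motifs begin with like letters, so a base can belong to matches of several. A match describes the letters of the window and was not tested as a binding site.

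The 250 bases before the start are printed for the 4 higher genes with the AP-1 motif, chosen after their values were seen. Capitals mark the AP-1 and TATA matches as they read on the strand of the gene, on GRCh38.p14: SPRR2A at chr1:153057513-153057762 (minus strand), SPRR2F at chr1:153113517-153113766 (minus strand), SPRR1B at chr1:153030953-153031202 (plus strand) and SPRR3 at chr1:153001499-153001748 (plus strand).
SPRR2A promoter: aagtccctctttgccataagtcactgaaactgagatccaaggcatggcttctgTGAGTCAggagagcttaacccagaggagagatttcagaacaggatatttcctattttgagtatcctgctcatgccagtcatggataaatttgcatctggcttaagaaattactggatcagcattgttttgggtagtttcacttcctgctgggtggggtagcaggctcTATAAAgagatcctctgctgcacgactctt
SPRR2F promoter: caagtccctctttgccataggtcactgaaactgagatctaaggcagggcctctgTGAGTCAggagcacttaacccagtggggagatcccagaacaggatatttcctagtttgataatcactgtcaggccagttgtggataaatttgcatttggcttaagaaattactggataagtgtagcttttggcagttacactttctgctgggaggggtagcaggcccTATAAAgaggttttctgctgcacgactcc
SPRR1B promoter: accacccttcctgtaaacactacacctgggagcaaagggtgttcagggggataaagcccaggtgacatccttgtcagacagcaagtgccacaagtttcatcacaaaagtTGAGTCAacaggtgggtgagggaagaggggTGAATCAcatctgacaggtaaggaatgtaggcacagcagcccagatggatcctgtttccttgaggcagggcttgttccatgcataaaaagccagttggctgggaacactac
SPRR3 promoter: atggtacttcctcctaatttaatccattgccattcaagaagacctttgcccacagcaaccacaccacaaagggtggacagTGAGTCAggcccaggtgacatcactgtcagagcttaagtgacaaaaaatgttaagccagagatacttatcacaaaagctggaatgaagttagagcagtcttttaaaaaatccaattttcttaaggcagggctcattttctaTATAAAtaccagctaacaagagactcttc
The AP-1 match began 197 bases before the start in SPRR2A, 196 in SPRR2F and 170 in SPRR3, and SPRR1B held a pair of them at 141 and 111. The TATA box began 30 bases before the start in SPRR2A and 29 in SPRR2F and SPRR3. In a global alignment with gaps the SPRR2A and SPRR2F windows were identical at 216 of 250 bases (86.4%), beside 150 (60%) to 158 (63.2%) for the other pairs of these windows.

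Other genes of cornification were taken as lists, whose counts were not tested. Beside them, over all genes above background on either array of a pair, 3.61% were higher and 2.2% lower in HN4/DDP and 8.37% and 2.75% in HN30/DDP. Of 29 counted differences in these lists, 20 were past 2 under every setting. The other 9 are given with each value that was not past 2. Some of the 20 are also given with an alternative value, which was still past 2 in the same direction. Of 4 further genes of the complex above background, 1 was higher in HN4/DDP (CRCT1, at least 8.28-fold; difference 5.08, 1.62 with normexp) and in HN30/DDP 0 of 3 differed by over 2. Among 11 envelope partners, 2 were higher in HN4/DDP, the scaffold protein gene SCEL (3.20) and the protease inhibitor gene PI3 (2.98). In HN30/DDP PI3 was lower (-2.59) and SBSN, suprabasin, higher (2.44; 1.79 with normexp). Of 9 barrier lipid genes, the fatty acid elongase ELOVL4 was lower in HN4/DDP, where it was not well above background (at least 29.8-fold; difference -5.14, -2.63 with normexp). The sphingolipid enzyme SPTLC3 was lower there as well (-2.30; -1.83 with normexp and -1.44 with the mean of all probes), and the cholesterol sulfotransferase SULT2B1 was higher in HN30/DDP (4.15; 2.74 with normexp).

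A further list was of keratins, most of them suprabasal or mucosal, and its genes did not move together. In HN4/DDP 4 of 9 were higher, KRT16 (5.25, or 2.99 with the mean of all probes), KRT13 (4.05), KRT6A (3.32) and KRT17 (3.29). The last was named after its value was seen. The other 5 lay between -0.82 (KRT80) and 0.42 (KRT10), and the list median was 0.42. KRT1 and KRT2 were below background on every array. In HN30/DDP the list median was -0.83. In HN30/DDP 2 of 9 were lower, and neither was well above background there: KRT6A by at least 183-fold (difference -8.44, -5.39 with normexp) and KRT6B by at least 73.8-fold (difference -6.23, -4.0 with normexp). Of 8 basal genes, COL17A1, a hemidesmosome collagen (5.67), and KRT14 (2.33; 1.71 with normexp) were higher and KRT5 (-4.05) lower in HN4/DDP, and COL17A1 (2.26; 1.84 with normexp and with median scaling) was higher in HN30/DDP.

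Among 18 regulators of keratinocyte differentiation, the transcription factors GRHL3 (5.49, or 3.67 with the mean of all probes) and ZNF750 (2.95) were higher in HN4/DDP. In HN30/DDP, ZNF750 (3.46), SATB1 (3.04) and the receptor NOTCH3 (2.49) were higher. None was lower in either line. Of 7 AP-1 genes, FOS (2.84), FOSB (2.79; 1.82 with normexp) and JUN (2.08; 1.91 with normexp) were higher in HN4/DDP and FOSB (2.37; 1.64 with normexp and 1.95 with median scaling) in HN30/DDP. S100P, outside the cluster, was higher in both (2.61 and 2.25; the latter 1.79 with normexp and 1.83 with median scaling), 1 of 2 such S100 genes above background. The receptors AGER and TLR4 and the S100A10 partner ANXA2 differed by less than 2 in both lines. Over all these lists the median difference lay between 0.10 for the basal and the barrier lipid genes and 1.39 for the rest of the complex in HN4/DDP, and between -0.84 for the receptors and 1.66 for the other S100 genes in HN30/DDP.

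**Figure D5:**
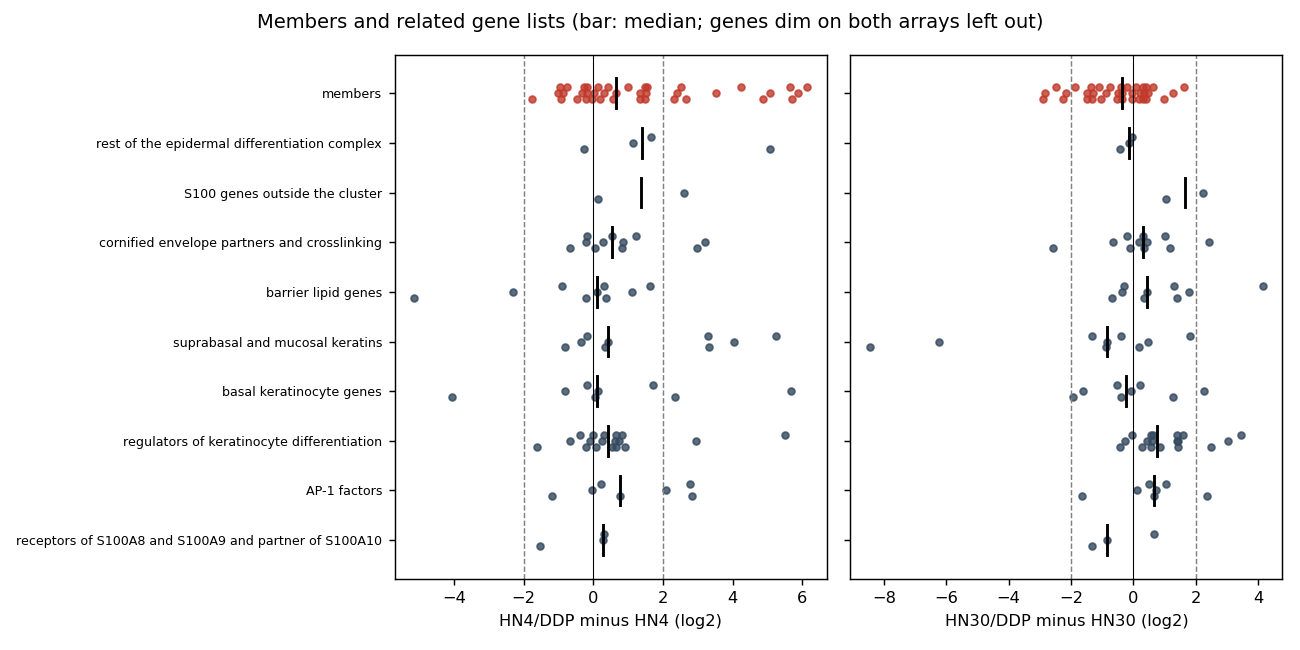
Log2 difference (horizontal) of every gene above background on either array of a pair, for the 52 genes and for 9 related lists, HN4/DDP against HN4 on the left and HN30/DDP against HN30 on the right; black bars are medians and dashed lines mark 2 and -2. The medians of the members were 0.66 and -0.37.

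The labelled cell type was checked against markers, with the summed signal of each list; signals of different probes are not on a common scale, so a sum follows the brightest probe. Of 10 squamous epithelial markers, all were above background on every array except KRT6A, which was below it in HN30/DDP. Their summed level was 6.92 in HN4 and 6.93 in HN4/DDP, and 7.0 in HN30 and 6.53 in HN30/DDP, with EPCAM, a marker of simple epithelia too, the brightest. Within the list, KRT6A (3.32), KRT17 (3.29) and KRT14 were higher in HN4/DDP and KRT5 (-4.05) and DSC3 (-2.95) lower, so the sum does not describe its genes. S100A8, S100A9 and S100A12 are also made by myeloid cells. Of 6 myeloid and leukocyte markers (LYZ had no value), 4 were above background on every array, the summed level was 2.90, 3.68, 2.08 and 5.34, CD14 was the brightest and FCGR3A was below background throughout. In HN30/DDP CD14 (3.49) and ITGAM (2.06) were counted as higher, while CSF1R (-0.11) and PTPRC (0.16) differed little. In HN4/DDP none was counted as higher. The differences there were 1.66 for CSF1R, 1.53 for ITGAM, 0.56 for CD14 and -0.10 for PTPRC, and MPO was at least 1.13-fold higher (1.06). The summed level was highest in HN30/DDP, and it was higher in HN4/DDP than in HN4. All arrays are of cultured carcinoma lines, and the source of the signals of these markers was not tested. Of 6 fibroblast markers, 2 were above background on every array. They summed to -1.34, 0.04, -2.16 and -0.37, with COL1A1 the brightest and COL1A2, COL3A1, DCN and LUM below background, and COL1A1 was higher in HN30/DDP (2.43). Of 4 endothelial markers 1 was above background on every array. Their sums were -1.91, -1.66, -2.16 and -1.81, with CDH5 the brightest probe in the parental and VWF in the resistant lines and KDR below background. In HN4/DDP VWF was at least 5.37-fold higher and PECAM1 at least 2.05-fold lower. Of 4 melanocyte markers 2 were above background on every array. Their sums were -1.23, -0.37, -1.11 and 0.34, with PMEL the brightest and MLANA and TYR below background.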

How the data were processed

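The samples were 4 one-colour (Cy3) arrays, 1 of each parental and each resistant line. The authors deposited the processed intensity of every spot, made with Agilent Feature Extraction 10.7.1.1 by the submitters' processing notes, with probe coordinates on hg19. This software subtracted the background, removed spatial trends and replaced very low signals by surrogates, which compresses differences of dim probes. Other deposited columns were flags that mark controls, outliers, saturation and signals well above background. A second table that the authors deposited holds log2 values, with the same quantiles in every column (median 4.66). Its differences correlated across probes with those of the intensities at r = 0.998 in HN4 (30523 probes) and 0.951 in HN30 (30138), and its background handling and spot combination are not given in the sources used here.

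From 60901 spots per array that are not controls, none saturated, outlier spots were dropped, log2 values were taken, averaged per probe (58201 probes) and set against the 75th percentile of the array. Each gene took the probe that was brightest on average. The lowest log2 signal called well above background by array was -4.76 in HN4 and -4.99 in HN4/DDP, and -4.63 in HN30 and -4.94 in HN30/DDP. A difference over 2 was counted. Of the 52 genes, 51 were matched by accession to RefSeq, where LOR is LORICRIN, and S100A7L2 kept its array name.

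Values on every array were given for each member past a difference of 2 in either line, the others by ranges with the extreme gene of a family, and from each related list up to 4 genes with the largest absolute difference. Further genes were named after their values were seen. The members and the lists were chosen with earlier results of these data known. The contrast of resistant with parental arrays was fitted with limma 3.58.1 (lmFit and eBayes with a trend, R 4.3.3) with Benjamini-Hochberg adjustment, and the procedure was tested on simulated data. Probe pairs sharing 15 bases or more were listed. Alternatives were normexp background correction (offset 50), median and quantile scaling, a pseudocount of 16, the mean of all probes, a difference of 1, other filters on dim probes and the authors' table. The probe nearest the 3' end was added after seeing the data. Python 3.11.15, numpy 2.4.6, pandas 2.3.3, Biopython 1.88 and matplotlib 3.10.9 were used.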

Additional observations from a re-analysis of the deposited data

Results flagged for a closer look

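Several genes differed in opposite directions in the resistant lines, each by over 1 in the values as reported. In HN4/DDP and HN30/DDP the difference was 4.87 and -2.17 for SPRR1B, 6.13 and -2.90 for SPRR2A, 5.88 and -1.86 for SPRR2E, and 5.07 and -1.50 for SPRR2C. With normexp the HN30/DDP values were -0.85, -1.39, -1.01 and -0.81. Among the S100A genes it was 1.49 and -2.25 for S100A8 and 2.32 and -2.85 for S100A7. Whether the lines differ in these values was not tested, since a condition has 1 array.

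Probes that did not represent their gene were picked out by a difference over 2 before bounds are applied. In HN4/DDP those measured on both arrays gave 4.27 for SPRR1A, 4.85 for SPRR2D and 5.58 for SPRR2A. Others were not well above background in the parental line and have only a bound. In HN4/DDP these were LCE1C (8.76, at least 87.5-fold), S100A1 (3.22, at least 3.24-fold) and TCHH (2.27, at least 1.45-fold), and in HN30/DDP LCE1C (2.94, at least 1.54-fold) and SPRR1A (2.03, at least 1.52-fold).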

How the results depend on the processing

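The 17 counted differences of single members had the same sign in all 102 values under the 6 alternatives for background, scaling, pseudocount, probe and the authors' table, and 88 of these values were past 2. Past 2 under every alternative were 10. For a gene with 1 probe the mean of all probes repeats the reported value, so that alternative could not change it. Of 73 counts under alternatives, 64 stayed within 1.5 times (the 12 higher in HN4/DDP were 18 at a difference of 1) and 9 moved further. Most of the 64 were counts of 0 that stayed at 0, those of limma among them, so this tally does not measure stability. The medians have no replicate spread to be held against; they ranged from 0.37 to 1.51 in HN4/DDP and from -0.79 to -0.29 in HN30/DDP. The cause of the moves was not tested.

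The count higher in HN4/DDP (12) was 7 when both arrays had to be well above background. It was 9 with normexp and with a pseudocount of 16. With dim signals set to the lowest signal well above background it was 10. With the mean of all probes it was 14, and with the probe nearest the 3' end 17. The count lower in HN4/DDP (0) was 2 at a difference of 1. The count higher in HN30/DDP (0) was 2 with the probe nearest the 3' end, an alternative chosen after seeing the data, and 2 at a difference of 1. The count lower in HN30/DDP (5) was 2 with normexp, 3 with a pseudocount of 16 and 13 at a difference of 1. It was 3 with both arrays above background and 4 with dim signals set to the lowest signal well above background. The count lower in HN30 than in HN4 (0) was 1 at a difference of 1. For the counts at a difference of 1, all genes above background on either array of a pair are given here. For the counts under the other settings the share over all genes was not taken, so they cannot be set against it. In HN4/DDP 2500 of 26853 were above 1 and 2322 below -1. In HN30/DDP 5605 of 28330 were above 1 and 3756 below -1. In HN30 against HN4, 1833 of 25890 were below -1. The median in HN4/DDP (0.66) was 0.37 with normexp, 1.35 with the mean of all probes, 1.51 with the probe nearest the 3' end and 0.41 with both arrays above background. The median in HN30/DDP (-0.37) was -0.79 with median scaling.

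Leaving out an array was not possible, since each condition has 1 and the limma contrast would have no residual degrees of freedom. Within a line no paired analysis was possible because each group has replicate 1 only. Across the lines the limma contrast pairs each resistant array with its parental one. SPRR2B, S100A7A, LCE3D and LCE5A were measured by probes near background. Their differences were smallest with normexp, which also gave the smallest value for most other counted differences.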
